A study of Mus musculus with 15 samples.

Results

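The comparison described here set RAW 264.7 macrophages given EVs from mice sacrificed 3 days after whole-body irradiation with 9 Gy against the same cells given EVs from sham mice. EVs are extracellular vesicles, small membrane particles released by cells, here taken from blood plasma. Genes were included when their mean raw count over the 3 samples with 9 Gy day 3 EVs was at least 20. This rule held for 153 of the 561 genes on the panel. The other 408 genes had too few counts in these samples for single values to be read, and 133 of them were at a count of 1, the lowest count deposited, in all 3.

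The study exposed the macrophages for 24 h to EVs from sham mice or from mice irradiated with 2 or 9 Gy and sampled on day 3 or day 7, which gave 5 groups of 3 samples, 15 in all. LPS, the bacterial cell wall component that Toll-like receptor 4 detects, was present in every group, the sham EV group included, so the comparison shows the response to LPS with one kind of EV against the same response with the other. The readout was the nanoString nCounter Mouse Immunology Panel, which counts color-coded probes bound to single mRNA molecules without amplification. RAW 264.7 is an established mouse macrophage line grown from a tumor induced by a leukemia virus, and it is a model of macrophages rather than a primary cell. The EV donors were female C57BL/6J mice aged 6 to 8 weeks by the study's methods, and how many donors contributed to the EVs of one sample is not given in the sources used here. The labels and the methods differ on the number of EVs added and on the lysis reagent. In the 9 Gy day 3 group a second label of replicates 1 and 2 gives day 7, and the titles were followed here. The methods state that samples were run in triplicate, so the p-values measure the spread between these samples, which may be technical.

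Macrophages detect LPS through CD14 and Toll-like receptor 4 and answer along a pair of arms. The MyD88 arm activates NF-κB and drives cytokines such as IL-1β, IL-6 and TNF. The TRIF arm activates interferon regulatory factors and drives interferon-β, which acts back on the cell through the interferon receptor and STAT proteins to raise chemokines, antigen presentation genes and further regulatory factors. Macrophages also take up particles through Fc and scavenger receptors, present peptides on MHC molecules, and display costimulatory ligands to T cells.

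The 9 Gy day 3 libraries stood apart from all others in depth. Their total counts were 43176, 60411 and 87899, against 568097 to 729491 with sham EVs, and the median sham total was 11.6 times the median here. The geometric mean of the 14 housekeeping genes of the panel differed less, with 69.2, 103 and 124 counts against 454 to 545, a ratio of medians of 5.21. Counts were divided by this geometric mean, so a choice of what to hold equal enters every fold change below. Between 190 and 246 genes per 9 Gy day 3 sample were at a count of 1, compared with 6 to 11 with sham EVs. Genes with a sham mean under 20 counts averaged 1.29 to 1.61 counts here and 7.75 to 10.03 with sham EVs, and the panel's control probes were not used, so no background was subtracted.

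The profiles of the 3 samples were not alike. Over the genes of the 153 with at least 20 counts in both samples, the standard deviation of the log2 ratio between replicates 1 and 2 was 0.311, where counting error alone gives 0.261. It was 0.759 between replicates 1 and 3 and 0.627 between replicates 2 and 3. Replicate 2 lay closer to replicate 1 of the 9 Gy day 7 group, at 0.210, close to its counting error, than to either sample of its own group. Replicate 3 lay closest to replicate 3 of the 9 Gy day 7 group, at 0.301 against 0.185. By a chi-square test of their counts both pairs differed by more than counting error (chi-square per degree of freedom 2.27 and 9.15). All samples were kept apart as labeled, but such a test cannot tell separate samples from repeated runs or dilutions of one RNA, and whether these pairs share RNA is not given in the sources used here and was not tested. The distances to the sham samples were larger, from 0.903 to 1.319.

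Macrophage genes were well measured and lymphocyte genes were not. Of 9 macrophage markers on the panel, 6 to 8 per sample reached 20 counts with 9 Gy day 3 EVs and all 9 did with sham EVs. Of 34 genes on a list of lymphocyte markers, 0 reached 20 counts in any 9 Gy day 3 sample and 3 to 5 did with sham EVs. Their summed normalized count was 279 to 397 and 383 to 478, and the T and B cell genes Cd3d, Cd3e and Cd79a had 1 or 2 counts per sample with 9 Gy day 3 EVs. Cd8a was the highest of the list there, with 9 to 12 counts, and had 82 to 125 with sham EVs. All samples were of a macrophage line, so no lymphocytes were among the cells cultured. In bulk samples such as these, fewer macrophages and less RNA per macrophage cannot be told apart.

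Of the 153 genes, 94 passed the threshold against sham EVs, 22 as higher and 72 as lower, and 59 did not. The threshold was an adjusted p under 0.05 in the quasi-likelihood test of edgeR, adjusted by Benjamini-Hochberg over all 269 genes of the panel that were tested. A log2 change is the fitted log2 fold change with 9 Gy day 3 EVs over sham EVs, and SE is its standard error. Among those 269 genes, 52.4% passed, 11.2% as higher and 41.3% as lower. The 3 samples lay wholly above or below the 3 sham samples in 100 of the 153 genes, compared with 55.8% of all genes tested. An exact permutation test of 3 against 3 samples cannot go below 0.1, so single genes cannot be called that way. The inclusion rule used counts of the 9 Gy day 3 samples. It favors genes that rose and leaves out genes that fell to very low counts. Of the genes left out, 131 had a sham mean of at least 20, and of the 116 left out that could be tested 39 were called lower and 8 higher, so the counts over the 153 genes do not measure how the whole response moved. Without replicates 1 and 2, whose labels conflict on the day, 59 genes passed, 7 of them as higher, from a fit that gives the lone sample the spread of the other groups.

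The direction of the smaller changes depended on the scaling. Relative to housekeeping scaling, the log2 fold changes were higher by 0.18 with only the 10 housekeeping genes that had a mean of at least 20 counts, by 0.47 with TMM, by 0.48 with DESeq2 size factors and by 1.01 with total counts. The split moved from 22 higher and 72 lower to 30 and 60, 40 and 41, 41 and 42, and 80 and 20 in that order. With total counts, 10 genes called lower became higher, namely Bcap31, Eef1g, Gapdh, Gusb, Irak2, Itgb1, Psmb5, Rpl19, Stat3 and Traf1. The same call held under all 5 scalings for 22 genes that rose and 20 that fell, and for 23.4% of all genes tested. The housekeeping genes themselves ranged in log2 fold change from -0.74 for Rpl19, a ribosomal protein gene, to 1.02 for Ppia, which encodes cyclophilin A, and 1.38 for Tubb5, a tubulin gene with 9 to 13 raw counts here.

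**Figure D1:**
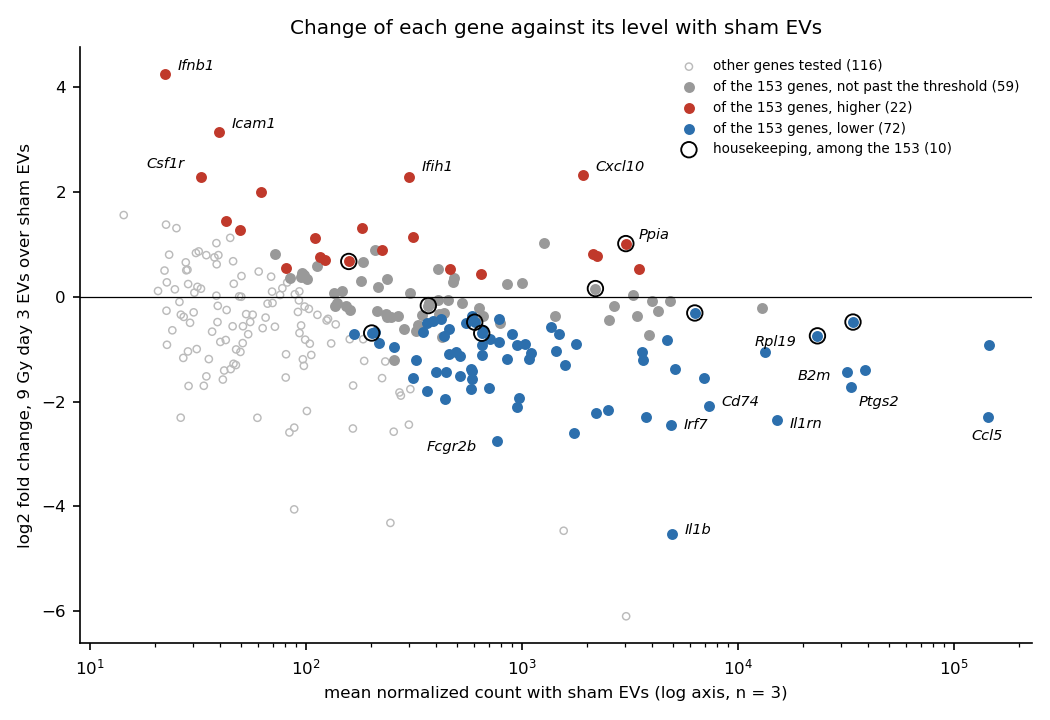
Log2 fold change of each gene, 9 Gy day 3 EVs over sham EVs, against its mean normalized count with sham EVs on a log axis. Red and blue points are the 22 higher and 72 lower genes of the 153, gray points the 59 not past the threshold, open gray points the 116 other genes tested and black circles the 10 housekeeping genes among the 153; Ifnb1 stands highest at 4.25 and Il1b lowest of the 153 at -4.53.

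**Figure D2:**
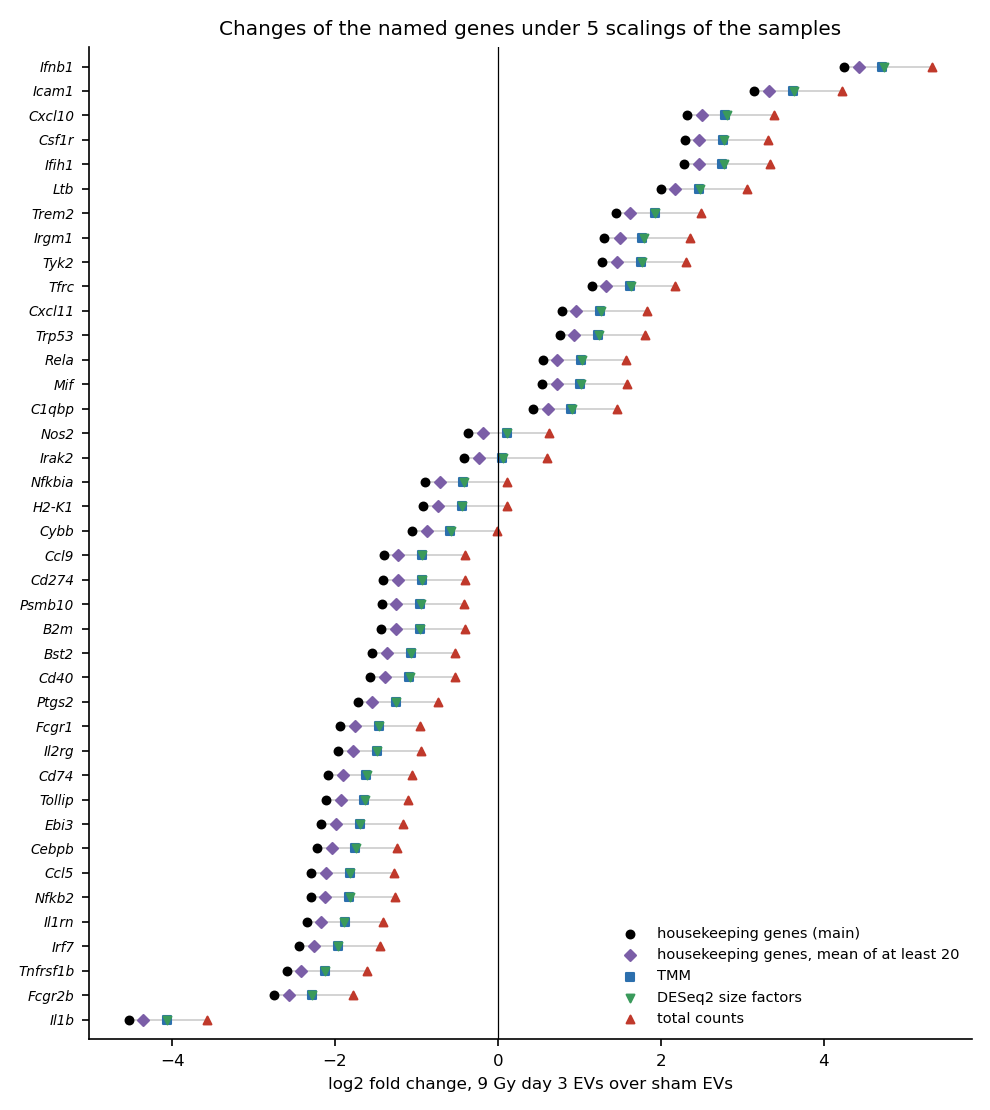
Log2 fold changes of genes named by rule, 9 Gy day 3 EVs over sham EVs, with 1 symbol per scaling of the samples. Each gene moves right by about 1.01 from housekeeping to total-count scaling, which carries Nos2, Irak2, Nfkbia and H2-K1 across 0 and leaves the order of the genes nearly as it was.

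The largest rise of the comparison was that of Ifnb1, which encodes interferon-β. It had 92, 97 and 37 raw counts with 9 Gy day 3 EVs and 17, 40 and 10 with sham EVs. Its raw counts were thus higher than with sham EVs in replicates 1 and 2 although the libraries were far less deep. Scaled, these were 677, 482 and 152 normalized counts with 9 Gy day 3 EVs and 19.1, 38.2 and 9.35 with sham EVs, and the groups did not overlap. The log2 change was 4.25 ± 0.68 (SE, adjusted p = 0.000158), and between 4.25 and 5.33 over the 5 scalings. The sham values lay close to the counts of the lowest genes of the panel, so the size of the rise rests on a small denominator.

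Ifih1, which encodes the RNA sensor MDA5, had 1809.8, 1679.6 and 918 normalized counts with 9 Gy day 3 EVs and 282, 352 and 266 with sham EVs. Its log2 change was 2.28 ± 0.29 (SE, adjusted p = 2.25e-05), a 4.87-fold rise from a sham level well above the lowest counts. Irgm1, an interferon-induced GTPase that takes part in defense against intracellular microbes, had 640.0, 507 and 221 normalized counts with 9 Gy day 3 EVs and 211, 175 and 158 with sham EVs, with a log2 change of 1.31 ± 0.33 (SE, adjusted p = 0.00515). Replicate 3 was the lowest of its group for both genes, yet above every sham sample. Ifi204, which encodes a DNA sensor, was also called higher at 0.54, but lost the call in 5 of the 6 fits that left out 1 sample.

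Other genes that act in the interferon response went down. Irf7, the interferon regulatory factor that amplifies interferon production, had 581, 829.9 and 1279 normalized counts with 9 Gy day 3 EVs and 5215, 4443 and 5053 with sham EVs. Its log2 change was -2.44 ± 0.26 (SE, adjusted p = 4.63e-06), a 5.43-fold fall. Bst2, which encodes tetherin, a membrane protein that holds back budding viruses, had 1839, 2385 and 2943 normalized counts with 9 Gy day 3 EVs and 6824, 7098 and 7026 with sham EVs and a log2 change of -1.54 ± 0.18 (SE, adjusted p = 9.21e-06). In neither gene did the groups overlap, and both fell under all 5 scalings.

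The receptor chains Ifnar1, Ifnar2 and Ifngr2 had log2 fold changes of -0.74, -1.09 and -1.44, and Ifi35, an interferon-induced gene, had -1.19. All 4 passed the threshold with housekeeping scaling and none did with total counts, where Ifnar1 lay at 0.28. The genes of the list that did not pass were Tbk1 at -0.11, Irf5 at -0.057, Ddx58 at 0.26, Ikbke at 0.35, Irf1 at 0.902 and Ifit2 at 1.03. Irf1 and Ifit2 had wide spreads, described below. Of the 17 genes of interferon induction and response, 4 rose, 7 fell and 6 did not pass, with a median log2 change of -0.057 beside -0.43 over the 153 genes and -0.46 over all 269. With TMM 6 rose and 6 fell, with a median of 0.42, and with total counts 10 rose and 2 fell, with a median of 0.99.

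Promoter sequences are shown for a pair of interferon-related genes that rose and a pair of genes that fell, since the genes of this response moved in opposite directions. They are RefSeq sequences of GRCm38.p6, from 220 to 71 bases before the annotated transcription start, each 150 bases long and written 5′ to 3′ on the strand of the gene. Capitals mark matches, on either strand, to GAAANNGAA, a core of the motif bound by interferon regulatory factors, or to the NF-κB consensus. Ifnb1 lies at chr4:88522865-88523014 (minus strand), Cxcl10 at chr5:92348960-92349109 (minus strand), Bst2 at chr8:71537543-71537692 (minus strand) and B2m at chr2:122147467-122147616 (plus strand).
Ifnb1: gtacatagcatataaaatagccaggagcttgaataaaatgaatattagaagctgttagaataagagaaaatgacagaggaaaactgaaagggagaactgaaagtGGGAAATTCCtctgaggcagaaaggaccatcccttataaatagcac
Cxcl10: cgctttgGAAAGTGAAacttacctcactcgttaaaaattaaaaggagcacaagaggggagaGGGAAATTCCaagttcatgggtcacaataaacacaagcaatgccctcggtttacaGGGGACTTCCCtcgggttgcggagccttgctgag
Bst2: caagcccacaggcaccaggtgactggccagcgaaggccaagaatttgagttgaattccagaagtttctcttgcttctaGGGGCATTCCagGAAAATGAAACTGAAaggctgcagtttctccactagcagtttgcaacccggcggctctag
B2m: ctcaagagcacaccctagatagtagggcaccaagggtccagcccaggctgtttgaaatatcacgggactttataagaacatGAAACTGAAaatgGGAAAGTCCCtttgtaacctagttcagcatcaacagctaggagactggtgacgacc
Within these stretches Cxcl10, Bst2 and B2m hold both kinds of match, and Ifnb1 holds the NF-κB consensus but no match to GAAANNGAA. That pattern fixes the spacing and letters, so a stretch without a match may still hold other sites for interferon regulatory factors. Of the 153 genes, 117 had at least 1 such window, taken as the 250 bases before the start. GAAANNGAA was found in 13 of the 117, in 3 of 18 that rose and in 8 of 58 that fell, compared with 8.181% of the 27025 genes of the table. It was in 2 of the 41 that were not called. The NF-κB consensus was found in 21 of the 117, in 3 of 18 that rose and 11 of 58 that fell, compared with 8.233% of all genes. It was in 7 of the 41 not called, so its share was alike in genes called higher (16.7%), called lower (19.0%) and not called (17.1%). The stretches shown are examples. Of the 17 genes with a window that fell under all 5 scalings, 4 held GAAANNGAA and 4 the NF-κB consensus. The windows of Irf7 and Psmb10, which also fell, held neither. A match describes letters in a window and is no measurement of binding.

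Among the chemokines, Cxcl10, which encodes an interferon-induced attractant of T cells, had 13956, 10749 and 4144 normalized counts with 9 Gy day 3 EVs and 1714, 2392 and 1656 with sham EVs. Its log2 change was 2.32 ± 0.41 (SE, adjusted p = 0.000359). Replicate 3 was well below the other two but still above all sham samples. Cxcl11, a ligand of the same receptor CXCR3, had 3892, 3871 and 3705 normalized counts with 9 Gy day 3 EVs and 1888, 3125 and 1637 with sham EVs, with a log2 change of 0.79 ± 0.27 (SE, adjusted p = 0.0248). Here the 3 irradiated-EV samples were close to each other and sham replicate 2 was high. The call of Cxcl11 was lost in 4 of the 6 fits without 1 sample (adjusted p up to 0.101).

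Ccl5, which encodes RANTES and attracts T cells and monocytes, had 24998, 28395 and 34276 normalized counts with 9 Gy day 3 EVs and 143087, 147796 and 138852 with sham EVs, a 4.90-fold fall with a log2 change of -2.29 ± 0.14 (SE, adjusted p = 2.84e-08). Ccl9, a macrophage inflammatory protein of rodents, had 10991, 11961 and 21120.0 normalized counts with 9 Gy day 3 EVs and 38331, 42658 and 35253 with sham EVs, with a log2 change of -1.399 ± 0.27 (SE, adjusted p = 0.000821). Ccl3, which encodes MIP-1α, was at -0.93 ± 0.14 (SE, adjusted p = 0.000108). The fall of Ccl5 held under all 5 scalings. With total counts Ccl9, at -0.398 (adjusted p = 0.0862), and Ccl3, at 0.098, lost the call. Ccl2 (-0.22), Ccl4 (-0.072), Ccl7 (0.24) and Ccl22 (0.66) did not pass the threshold. Of the 9 chemokine genes 2 rose, 3 fell and 4 did not pass, with a median of -0.072, and with total counts 5 rose and 1 fell, with a median of 0.98.

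**Figure D3:**
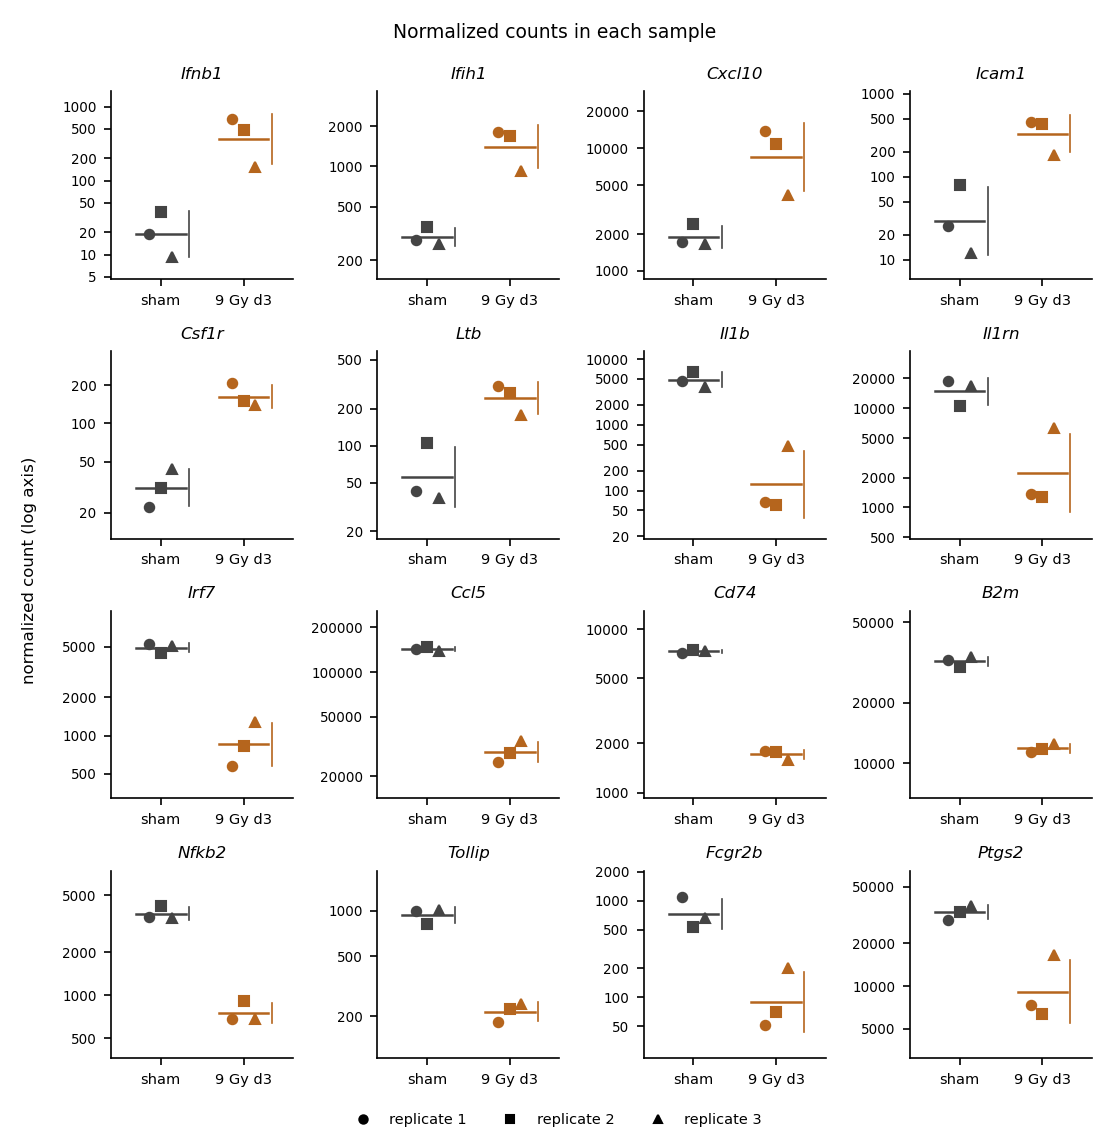
Normalized counts of 16 genes in each sample on log axes, with sham EVs in gray and 9 Gy day 3 EVs in brown. Symbols mark the replicate, horizontal lines the geometric mean of 3 samples and vertical lines the standard deviation of the log2 values; the groups do not overlap in any of the 16 genes, and replicate 3 stands apart in Il1b, Il1rn, Fcgr2b, Ptgs2, Ifnb1 and Cxcl10.

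The largest fall among the 153 genes was that of Il1b, which encodes IL-1β. It had 9, 12 and 118 raw counts with 9 Gy day 3 EVs and 4188, 6682 and 4038 with sham EVs. In normalized counts these were 66.2, 59.6 and 484 against 4694, 6378 and 3774. All 3 samples were far below the sham samples, and replicate 3 was several times higher than replicates 1 and 2. Il1b met the inclusion rule through replicate 3 alone, and its counts in replicates 1 and 2 are low, so the size of the fall there is poorly known. The log2 change was -4.53 ± 0.86 (SE, adjusted p = 0.000643), and -6.305 without replicate 3. Il1rn, which encodes the antagonist of the IL-1 receptor, fell as well. It had 1361, 1287 and 6279 normalized counts with 9 Gy day 3 EVs and 18576, 10405 and 16574 with sham EVs, and its log2 change was -2.35 ± 0.58 (SE, adjusted p = 0.00461), or -3.52 without replicate 3. The agonist and its antagonist thus fell in the same samples, and replicate 3 was highest of its group in both.

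Ebi3, which encodes a subunit shared by IL-27 and IL-35, had 456, 522 and 689 normalized counts with 9 Gy day 3 EVs and 2754, 2319 and 2459.9 with sham EVs and a log2 change of -2.17 ± 0.19 (SE, adjusted p = 8.61e-07). Its partner Il27 was at -0.72 and did not pass. Lif, which encodes leukemia inhibitory factor, was called lower at -1.08, a call lost in 3 of 6 fits without 1 sample and under 3 of the 5 scalings. In the other direction, Ltb, which encodes lymphotoxin β, had 309, 268 and 176 normalized counts with 9 Gy day 3 EVs and 42.6, 105 and 37.4 with sham EVs, with a log2 change of 1.997 ± 0.44 (SE, adjusted p = 0.00194). Mif, which encodes macrophage migration inhibitory factor, had 5532, 5099 and 4599 normalized counts with 9 Gy day 3 EVs and 3221, 4032 and 3204 with sham EVs, a smaller rise of 0.54 ± 0.15 (SE, adjusted p = 0.00975). For neither gene did the groups overlap. Tnf did not pass, at -0.45 (adjusted p = 0.152), and it lay at 0.61 with total counts. Il18 (-0.77), Tgfb1 (-0.36) and Il15 (0.42) did not pass either. Of the 11 cytokine genes 2 rose, 4 fell and 5 did not pass, with a median of -0.72, but with total counts 4 rose and 3 fell, with a median of 0.32.

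Several cytokines fell below the count of 20 and are therefore outside the 153 genes. Il6 had 4, 9 and 13 raw counts with 9 Gy day 3 EVs and 2427, 2290 and 4483 with sham EVs, and Il23a had 4, 1 and 2 raw counts with 9 Gy day 3 EVs and 126, 399 and 230 with sham EVs. Both were called lower (adjusted p = 3.4e-08 and 1.37e-05). With 9 Gy day 3 EVs the counts of Il23a were at or near the lowest on the panel. Those of Il6 were higher but under 20 in every sample, so the size of either fall is poorly known. The fall of Il23a rests on counts of 1 to 4.

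In the inflammasome list, which shares Il1b and Il18 with the cytokines, Casp1, which encodes the protease that matures IL-1β, was at -0.61 ± 0.197 (SE, adjusted p = 0.0187). It lost the call in 3 of the 6 fits without 1 sample, and of the 5 scalings only that to all housekeeping genes called it. Of the 3 genes, 2 fell and 1 did not pass, and with total counts 1 fell.

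Antigen presentation genes were lower with housekeeping scaling. Cd74, which encodes the invariant chain that escorts MHC class II molecules, had 1802, 1769 and 1594 normalized counts with 9 Gy day 3 EVs and 7133, 7434 and 7378 with sham EVs. The spread within each group was small and the log2 change was -2.09 ± 0.103 (SE, adjusted p = 3.9e-09), a 4.25-fold fall that held under all 5 scalings. It was the one gene of 9 MHC class II genes on the panel with enough counts, so nothing can be said here of the class II chains themselves.

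B2m, which encodes β2-microglobulin, the light chain of MHC class I, had 11322, 11832 and 12452 normalized counts with 9 Gy day 3 EVs and 32389, 30173 and 33534 with sham EVs. The log2 change was -1.43 ± 0.11 (SE, adjusted p = 1.74e-07), a 2.70-fold fall in a gene with 1539 to 3038 raw counts per sample. H2-K1, which encodes a class I heavy chain, had 522, 482 and 496 normalized counts with 9 Gy day 3 EVs and 942, 966 and 919.7 with sham EVs, with a log2 change of -0.92 ± 0.12 (SE, adjusted p = 2.25e-05), but 0.11 with total counts. Psmb10, an immunoproteasome subunit, had 139.8, 144 and 159.8 normalized counts with 9 Gy day 3 EVs and 374, 437 and 389.7 with sham EVs, and its log2 change was -1.43 ± 0.19 (SE, adjusted p = 2.58e-05). The peptide transporter gene Tap1 (-0.81), the tapasin gene Tapbp (-0.91) and the proteasome genes Psmb7 (-0.702) and Psmb5 (-0.36) were also called lower. Psmb5 and Psmb7 belong to the proteasome of all cells. All 7 genes of the list with enough counts were called lower, with a median of -0.91, but with total counts the median was 0.13, B2m and Psmb10 remained lower and Psmb5 was called higher (0.66).

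Among costimulatory and checkpoint ligands, Cd40, the receptor through which T cells activate macrophages, had 191, 219 and 184 normalized counts with 9 Gy day 3 EVs and 548, 874 and 338 with sham EVs. Its log2 change was -1.57 ± 0.47 (SE, adjusted p = 0.0127), and the call was lost without sham replicate 2, the highest sample (adjusted p = 0.0541), and under 3 of the 5 scalings, with -0.52 under total counts (adjusted p = 0.32). Cd274, which encodes PD-L1, the ligand that restrains T cells, had 177, 214 and 266 normalized counts with 9 Gy day 3 EVs and 591, 565 and 610.3 with sham EVs and a log2 change of -1.41 ± 0.15 (SE, adjusted p = 5.12e-06). The latter fell under all 5 scalings. Cd83, a surface marker of activated antigen-presenting cells, was at -1.205, and Slamf7, at -1.21, did not pass (adjusted p = 0.0622). Cd86, a ligand of CD28 outside the 153 genes, had 7, 12 and 13 raw counts with 9 Gy day 3 EVs and 293, 232 and 372 with sham EVs and was called lower (adjusted p = 4.63e-06).

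Icam1, the adhesion ligand of leukocyte integrins, went the other way. It had 62, 87 and 45 raw counts with 9 Gy day 3 EVs and 23, 84 and 13 with sham EVs. In normalized counts these were 456, 432 and 184 against 25.8, 80.2 and 12.2, and the log2 change was 3.15 ± 0.75 (SE, adjusted p = 0.00364). The sham samples spread widely, with replicate 2 highest, and without that sample the rise was 4.23. The other sham samples, with 23 and 13 raw counts, lay near the lowest genes of the panel, so both sizes rest on a small denominator. Of the 5 genes of the list 1 rose, 3 fell and 1 did not pass, and with total counts 1 rose and 1 fell.

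In the Toll-like receptor list, Tollip, which encodes a brake on signaling from Toll-like and IL-1 receptors, had 184, 224 and 242 normalized counts with 9 Gy day 3 EVs and 1007, 818 and 1010.3 with sham EVs. The log2 change was -2.11 ± 0.17 (SE, adjusted p = 3.97e-07), a 4.32-fold fall that held under all 5 scalings. Cd14, the LPS coreceptor, was at -1.202 ± 0.35 (SE, adjusted p = 0.011), with replicate 3 within the range of the sham samples. Its call held under 2 of the 5 scalings, with -0.22 under total counts (adjusted p = 0.577), and was lost in 2 of the 6 fits without 1 sample (adjusted p up to 0.0548). Irak2, a kinase of the MyD88 arm, had a log2 change of -0.42 ± 0.13 (SE, adjusted p = 0.0136), which turned to 0.049 with TMM and 0.61 with total counts. Irak3 (-0.26) and Tlr2 (0.59) did not pass. Of these 5 genes, 3 fell and 2 did not pass, with a median of -0.42, but with total counts 3 rose and 1 fell, with a median of 0.61. Another 14 genes of the list that are on the panel had too few counts.

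Among NF-κB genes, Nfkb2, which encodes the p100 precursor of the noncanonical pathway, had 684, 909 and 680.4 normalized counts with 9 Gy day 3 EVs and 3541, 4229 and 3447 with sham EVs. Its log2 change was -2.301 ± 0.19 (SE, adjusted p = 4.11e-07), a 4.93-fold fall. Nfkbia, which encodes the inhibitor IκBα and is itself a target of NF-κB, had 544, 472 and 643 normalized counts with 9 Gy day 3 EVs and 1096, 829 and 1161 with sham EVs and a log2 change of -0.89 ± 0.15 (SE, adjusted p = 0.000212), or 0.11 with total counts. Rela, which encodes the p65 subunit, had 125, 124 and 107 normalized counts with 9 Gy day 3 EVs and 75.1, 88.8 and 77.6 with sham EVs, called higher at 0.55 ± 0.21 (SE, adjusted p = 0.0397), and the call was lost in 4 of 6 fits without 1 sample (adjusted p up to 0.115). Nfkb1 (0.54), Relb (0.299) and Nfkbiz (-0.21) did not pass. Of the 6 genes 1 rose, 2 fell and 3 did not pass, with a median of 0.046, but with total counts 4 rose and 1 fell, with a median of 1.09.

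In the JAK and STAT list, Il2rg, which encodes the common γ chain of cytokine receptors, had 118, 99.4 and 123 normalized counts with 9 Gy day 3 EVs and 389, 445 and 489 with sham EVs, with a log2 change of -1.96 ± 0.17 (SE, adjusted p = 5.72e-07). Tyk2, a kinase of the interferon receptor, had 154, 114 and 102 normalized counts with 9 Gy day 3 EVs and 44.8, 50.6 and 53.3 with sham EVs, with a log2 change of 1.28 ± 0.26 (SE, adjusted p = 0.00109) from raw counts of 21 to 25. Jak1 (-0.67) and Stat3 (-0.43) were called lower with housekeeping scaling, and with total counts lay at 0.35 and 0.58. Stat5a (-0.61), Jak2 (-0.55), Ptpn6 (-0.12), Stat6 (0.074), Ptpn2 (0.38) and Il10ra (0.46) did not pass. Of the 11 genes 1 rose, 4 fell and 6 did not pass, with a median of -0.43, but with total counts 6 rose and 1 fell, with a median of 0.58.

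Of the 11 phagocytic and Fc receptor genes 1 rose, 6 fell and 4 did not pass with housekeeping scaling, beside 72 of 153 genes that fell, and with total counts 4 rose and 1 fell. Fcgr2b, the inhibitory Fc receptor for IgG, had 7, 14 and 49 raw counts with 9 Gy day 3 EVs and 979, 563 and 710 with sham EVs. In normalized counts these were 51.5, 69.6 and 201 against 1097, 537 and 664, with a log2 change of -2.75 ± 0.45 (SE, adjusted p = 0.000193). It passed the inclusion rule through replicate 3. Fcgr1, the activating high-affinity receptor, had 132, 224 and 381 normalized counts with 9 Gy day 3 EVs and 1239, 454 and 1213 with sham EVs and a log2 change of -1.94 ± 0.45 (SE, adjusted p = 0.0029). For neither receptor did the groups overlap. Fcer1g, the signaling chain that activating Fc receptors share, was at -1.38 ± 0.13 (SE, adjusted p = 1.36e-06). Fcgr2b fell under all 5 scalings, while with total counts Fcgr1 (-0.96) and Fcer1g (-0.36) lost the call.

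Plaur (-1.18), the urokinase receptor, Msr1 (-1.04), a scavenger receptor, and Ctss (-0.82), which encodes cathepsin S, were also called lower, though none of the 3 was with total counts, where Ctss lay at 0.205. Msr1 lost the call in 3 of the 6 fits without 1 sample. C1qbp, a binding protein of the complement component C1q that is found mainly in mitochondria, had 795, 885 and 939 normalized counts with 9 Gy day 3 EVs and 633, 727 and 584 with sham EVs, a log2 change of 0.43 ± 0.13 (SE, adjusted p = 0.0127), and lost the call without sham replicate 3 (adjusted p = 0.0577). Itgb2 (-0.65), Clec5a (-0.36), Clec4e (-0.074) and Cd36 (-0.064) did not pass. The median over the 11 genes was -0.82, or 0.205 with total counts.

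Among the macrophage markers, Cebpb, a transcription factor of myeloid cells that LPS induces, had 324, 358 and 713 normalized counts with 9 Gy day 3 EVs and 2340.4, 1416 and 2831 with sham EVs and a log2 change of -2.22 ± 0.37 (SE, adjusted p = 0.000199). Emr1, which encodes F4/80, was at -1.31 ± 0.19 (SE, adjusted p = 5.95e-05). Csf1r, the receptor for the macrophage growth factor M-CSF, had 28, 30 and 34 raw counts with 9 Gy day 3 EVs and 20, 33 and 47 with sham EVs, nearly equal before scaling in libraries of very different depth. Scaled, they were 206, 149 and 139 against 22.4, 31.5 and 43.9, a rise of 2.29 ± 0.26 (SE, adjusted p = 8.85e-06). The sham counts of Csf1r were low, so the size of its rise rests on a small denominator. Ptprc, the pan-leukocyte gene that encodes CD45, did not pass, at -0.12. Of the 7 marker genes 1 rose, 5 fell and 1 did not pass, but with total counts 2 rose and 1 fell, and Emr1, at -0.28, lost the call.

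Of the enzymes for nitric oxide, reactive oxygen and prostaglandins, Ptgs2, which encodes COX-2, had 7394, 6326 and 16538 normalized counts with 9 Gy day 3 EVs and 29408, 33265 and 36899 with sham EVs. The log2 change was -1.72 ± 0.39 (SE, adjusted p = 0.00266), and -2.27 without replicate 3. Cybb, which encodes the catalytic subunit of the phagocyte NADPH oxidase, had 6893, 6271 and 6029 normalized counts with 9 Gy day 3 EVs and 12826, 15888 and 11106 with sham EVs, with a log2 change of -1.05 ± 0.17 (SE, adjusted p = 0.000159). Ncf4, a cytosolic subunit of the same oxidase, was at -0.87, but at 0.15 with total counts. Nos2, which encodes inducible nitric oxide synthase, had 316, 422 and 771 normalized counts with 9 Gy day 3 EVs and 671, 657 and 641 with sham EVs. Replicates 1 and 2 lay below all sham samples and replicate 3 above them, and the log2 change of -0.36 ± 0.295 (SE, adjusted p = 0.306) did not pass. It turned to 0.11 with TMM and 0.63 with total counts. Of the 4 genes, 3 fell and 1 did not pass, but with total counts 0 fell and Nos2 rose, with Ptgs2 at -0.74 (adjusted p = 0.058) and Cybb at -0.016 (adjusted p = 0.937).

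Few genes of apoptosis, the DNA damage response or TGF-β signaling had enough counts. Trp53, which encodes p53, had 250.1, 224 and 127 normalized counts with 9 Gy day 3 EVs and 115, 127 and 106 with sham EVs. Its log2 change was 0.76 ± 0.25 (SE, adjusted p = 0.0215), and the call was lost in 3 of 6 fits without 1 sample (adjusted p up to 0.0945). Cdkn1a, a transcriptional target of p53 that arrests the cell cycle, was at -0.18 and did not pass, nor did Bax (0.29) and Casp8 (-0.25), though with total counts all 4 were called higher. Tgfb1 (-0.36) and Tgfbr2 (0.400) did not pass either, though both were called higher with total counts.

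Outside the lists, Tfrc, the transferrin receptor that takes up iron, had 736, 611 and 734 normalized counts with 9 Gy day 3 EVs and 290.3, 319.8 and 324 with sham EVs. The groups were tight and apart, with a log2 change of 1.15 ± 0.14 (SE, adjusted p = 1.28e-05). Trem2, a lipid-sensing receptor of macrophages, had 15, 32 and 20 raw counts with 9 Gy day 3 EVs and 35, 78 and 15 with sham EVs, a log2 change of 1.45 ± 0.58 (SE, adjusted p = 0.0487), and lost the call in 4 of 6 fits without 1 sample (adjusted p up to 0.208). Tnfrsf1b, which encodes TNF receptor 2, had 191, 224 and 430.4 normalized counts with 9 Gy day 3 EVs and 1844, 1257 and 2103 with sham EVs, a 6.03-fold fall with a log2 change of -2.59 ± 0.403 (SE, adjusted p = 0.000134). Of 4 further genes in no list that rose, chosen for mention after their values were seen, Tcf4 was at 1.12, Itga4 at 0.897, Mapkapk2 at 0.82 and Rae1 at 0.71. Crlf2 (-1.798), Bst1 (-1.76), Cd82 (-1.73) and Gm10499 (-1.503), chosen likewise, fell under all 5 scalings.

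**Figure D4:**
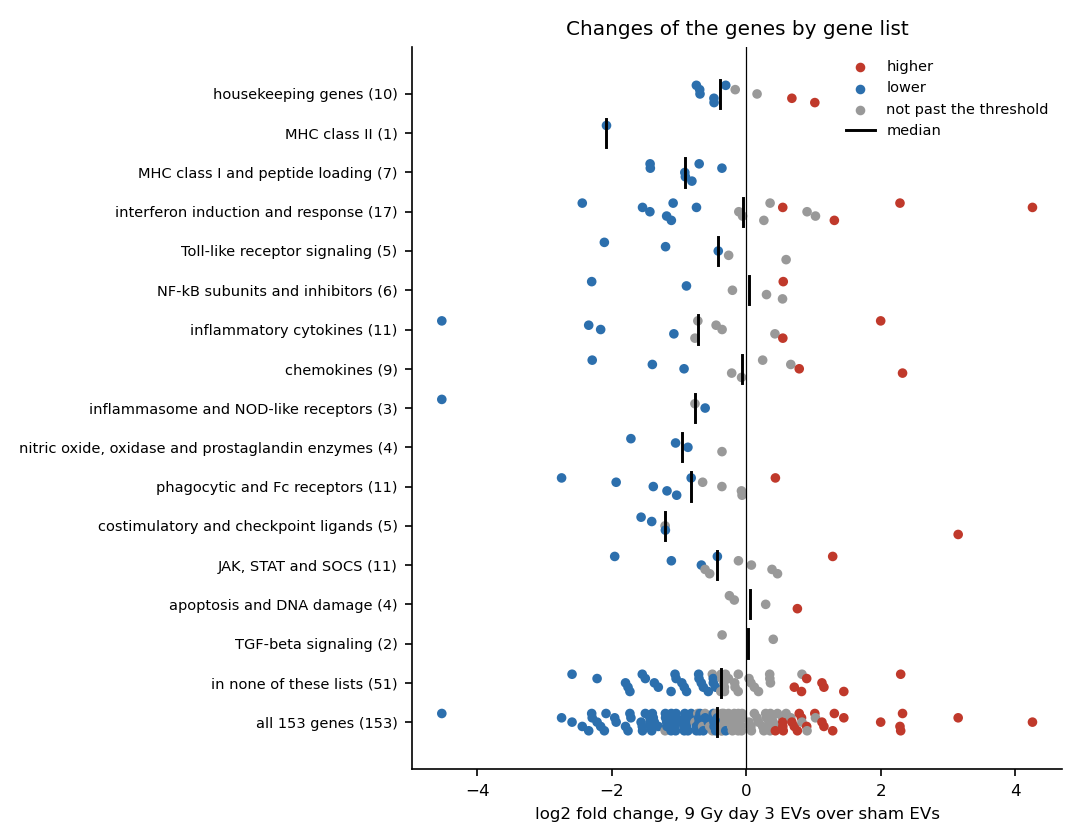
Log2 fold changes, 9 Gy day 3 EVs over sham EVs with housekeeping scaling, of the 153 genes by gene list, with the number of genes in parentheses. Red, blue and gray points are genes called higher, called lower or not past the threshold, and black bars the medians; the 7 MHC class I genes are all lower, though their median is 0.13 with total counts, while interferon, chemokine and cytokine genes lie on both sides of 0.

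Replicate 3 was more than 2-fold from the mean of replicates 1 and 2 in 20 of the 153 genes. It was nearer the sham samples in 71 of the 94 genes called and farther in 23, and over all genes tested in 103 of the 141 called. Irf1, which encodes an interferon regulatory factor, had 529.7, 571 and 98.4 normalized counts against 99.8, 376 and 151 with sham EVs. Ifit2, an interferon-induced gene, had 4076, 2813 and 844 against 1235, 1460.5 and 1080.4. In both, replicates 1 and 2 were above all sham samples and replicate 3 below them. Without replicate 3 the log2 fold change of Ifit2 was 1.45 (adjusted p = 0.0107) and that of Irf1 1.39 (adjusted p = 0.103).

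Ccl2 and Ccl7, which attract monocytes, showed the reverse order. Ccl2 had 6312, 6942 and 19911 normalized counts against 12317, 15183 and 11129, and Ccl7 had 515, 666 and 1799 against 933, 666 and 949. Replicate 3 was the highest of all 6 samples for both. The 9 Gy day 7 group held a like pattern, with Ccl2 at 7106, 5052 and 23656 normalized counts and Ccl7 at 626, 463 and 2397. In all 20 genes, and in 125 of the 153, replicate 3 lay on the same side of replicates 1 and 2 in both 9 Gy groups. What the replicate numbers share is not given in the sources used here, and its part in these values was not tested.

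Leaving out replicate 3 of the 9 Gy day 3 group gave 95 genes called, of which 89 were among the 94. The rise of Cxcl10 went from 2.32 to 2.68 and that of Irgm1 from 1.31 to 1.66. The fall of Fcgr2b went from -2.75 to -3.63. Among genes not called in either fit, Ccl7 turned from 0.24 to -0.52 and Tbk1 from -0.11 to 0.21, while Nos2 gained a call, at -0.82 (adjusted p = 0.0265). Of the 94 genes called, 69 kept the call without each of the 6 samples in turn, and 25 lost it at least once, 7 that were higher and 18 lower. Over all genes tested, 97 of the 141 called kept it.

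**Figure D5:**
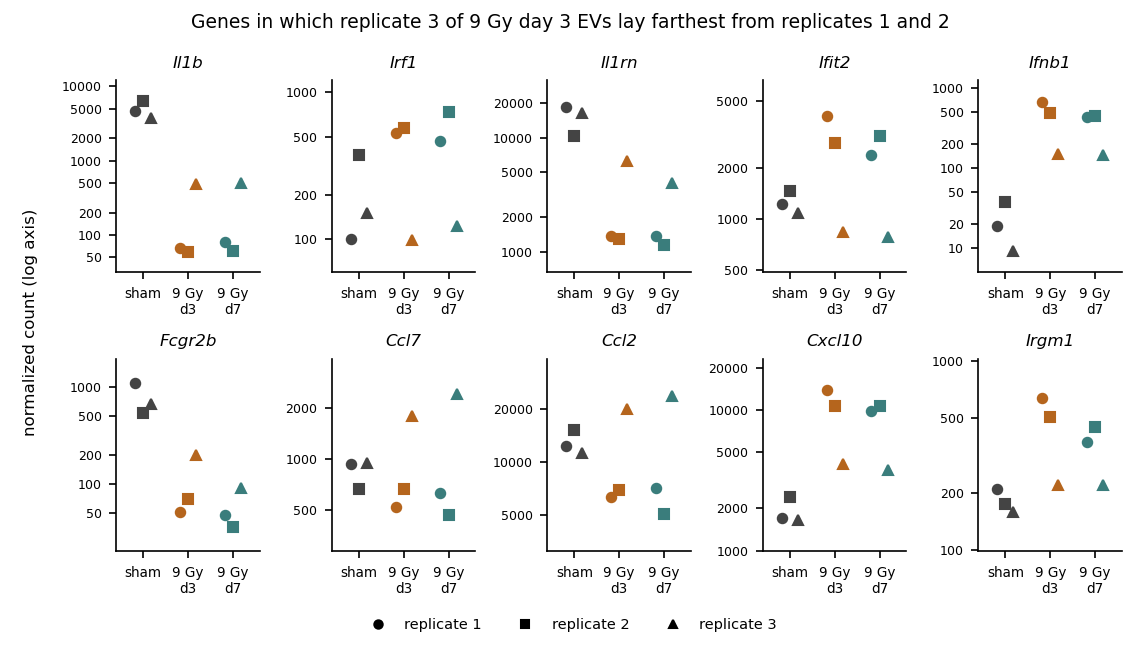
Normalized counts on log axes of the 10 genes in which replicate 3 of the 9 Gy day 3 group (brown triangles) lay farthest from replicates 1 and 2, with sham EVs in gray and 9 Gy day 7 EVs in teal. In all 10 genes replicate 3 of the 9 Gy day 7 group lies on the same side, and in Ccl2 and Ccl7 both triangles are above every sham sample.

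Compared directly with 9 Gy day 7 EVs, 0 of the 153 genes passed the threshold, and 0% of the 269 genes tested. At an unadjusted p under 0.05 there were 2 of the 153, Irak3 and Batf, named for being the only ones, and 6 of the 269. DESeq2 gave 0 after adjustment and 5 of the 153 unadjusted. The log2 differences, day 3 over day 7, were 0.303 for Ifnb1, 0.24 for Cxcl10, -0.013 for Il1b, -0.082 for Irf7, 0.11 for Cd74 and 0.15 for B2m. The libraries of the day 7 group held 453178 to 617963 counts, so the comparison is one between libraries of very different depth. As given above, replicates 2 and 3 of the 9 Gy day 3 group each lay closest to a sample of the day 7 group. Replicate 1 lay at 0.304 from replicate 1 of day 7 and at 0.311 from replicate 2 of its own group. Counting error alone gives 0.206 and 0.261 there, and chi-square per degree of freedom was 7.24 and 4.08. Beyond counting error, replicate 1 was thus nearer its own group. If replicates 2 and 3 shared RNA with those day 7 samples, the groups would not be independent. Then 0 calls would say little about day 3 against day 7, which could not be checked. The standard errors of these log2 differences ran from 0.093 to 0.79 over the 153 genes, with a median of 0.202. A difference of more than 2 standard errors also did not pass after adjustment, namely 0.38 ± 0.17 (SE) for Batf (adjusted p = 0.986), so the count of 0 does not exclude differences of that size.

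Compared directly with 2 Gy day 3 EVs, 91 of the 153 genes differed, beside 49.4% of the genes tested. This comparison uses the same 9 Gy day 3 samples, so it is no second measurement of them. The log2 difference, 9 over 2 Gy, was 4.18 (adjusted p = 0.000173) for Ifnb1, 1.93 (adjusted p = 0.00149) for Cxcl10, -4.25 (adjusted p = 0.001) for Il1b and -2.14 (adjusted p = 2.84e-09) for Cd74. Cxcl11, at 0.54 (adjusted p = 0.105), and Trp53, at 0.45 (adjusted p = 0.139), did not pass.

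The genes nearest the count of 20 were not alike in their changes. Just inside it were Ccrl2 with a mean of 20 counts, Npc1 with 20 and Crlf2 with 20.3, with log2 fold changes of -1.55, -0.71 and -1.798. Just outside were Irak1 and Tnfaip3 with 19.7 each and Alas1 with 19, with log2 fold changes of 0.11, -0.81 and 0.28.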

How the data were processed

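RNA of RAW 264.7 macrophages was assessed on the nanoString nCounter Mouse Immunology Panel. The authors deposited whole-number raw counts of 561 genes per sample, with no count of 0. According to the methods, counts were normalized in nSolver, with settings not given in the sources used here, and the control probes were not used here. Samples were grouped by title.

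The scale of each sample was the geometric mean of its 14 housekeeping genes. A normalized count is a raw count divided by a sample's factor, which averaged 1 over the sham samples. Genes averaging at least 20 counts across the 15 samples, 269 in all, entered 1 quasi-likelihood fit of all 5 groups in edgeR 4.0.16 (R 4.3.3, prior count 0.125), with Benjamini-Hochberg adjustment and a threshold of 0.05. All 153 genes described were tested. The standard error is the absolute log2 fold change divided by the square root of F. Precision follows the counts, with a mean of 20 to 14808 per gene in the 9 Gy day 3 samples.

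The genes named were, in each list, the 2 largest called changes per direction without overlap of the groups, and the 10 largest rises and falls of that kind. Nos2 and 3 genes on each side of the count of 20 were added. Cd74, H2-K1, B2m, Ccl5, Nfkb2, Cd86, Tollip, Il6 and Il23a were also named, though the text of the paper does not name them for this comparison. Other list members are named to complete a list. A gene that the rule names is not reported here. The genes described and the lists were chosen with earlier results of these data known. Deviations from the group means were correlated between samples of the same number. The correlations with sham EVs were -0.18, 0.17 and 0.22, so the numbers were not taken as pairs. With 9 Gy day 7 EVs they were 0.33, 0.40 and 0.72, a pairing that comes from the values only, though replicates 1 and 2 also correlated across numbers, at 0.42 and 0.27, and the blocked fit changed no call there. Alternatives were other scalings, filters, DESeq2 1.42.0, a count floor, a replicate block, both treatments of the conflicting day labels and leaving out each sample. Promoters are RefSeq windows of GRCm38.p6, matched by symbol. The procedure was tested on simulated data in which the housekeeping genes did not change and no replicate stood apart. That test therefore does not cover shifts of the housekeeping genes or of replicate 3.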

Additional observations from a re-analysis of the deposited data

How the results depend on the processing

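The number of the 153 genes that differed from sham EVs was 94, and 81 with TMM, 83 with DESeq2 size factors and 100 with total counts, but the direction moved: 40 higher and 41 lower with TMM, 41 and 42 with size factors, and 80 and 20 with total counts. Irak2 reversed to 0.049 with TMM, 0.061 with size factors and 0.61 with total counts, where H2-K1 (0.11), Nfkbia (0.11) and Nos2 (0.63) also reversed; Nos2 was at 0.11 with TMM, not called. With counts under 20 set to 20, 107 genes differed, 12 higher and 95 lower, and 31 differed from 9 Gy day 7 EVs. That floor acts mainly on the shallow 9 Gy day 3 libraries, where it stands for more normalized counts than in deeper ones, so it builds in differences between groups and these calls are not read as changes. Without replicates 1 and 2, whose day labels conflict, 59 genes passed, 7 of them as higher, and with both placed at day 7, 55 and 7; the lone sample was given the spread of the other groups. Leaving out each sample of the groups compared gave 77 to 95 genes, 16 to 22 higher and 59 to 73 lower, and 0 to 0 against 9 Gy day 7 EVs. With the replicate number as a block (replicate block), 98 genes differed, 22 higher and 76 lower, and 0 from 9 Gy day 7 EVs, and no named gene changed its call. Counting genes by the mean of both groups on the housekeeping scale took in 163 genes, 147 of them among the 153, with 18 higher and 85 lower. That rule is even between the directions only if the housekeeping scaling holds, which it does not test. The remaining alternatives gave between 79 and 99 genes. With only the compared groups in the fit, 18 of the 94 genes lost the call, as did 5 of the 44 named genes. Without a filter these numbers were 13 and 2. The depth of the 9 Gy day 3 libraries limits all genes near 20 counts.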
